A study of Mus musculus with 8 samples.

Results

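The genes described here encode the proteins of the spliceosome and the heterogeneous nuclear ribonucleoproteins (hnRNPs). They were taken by symbol, as every gene whose name begins with Hnrnp, Snrp, Snrnp, Sf3a, Sf3b, Prpf or U2af or with Lsm and a digit, and 77 of the 10690 genes listed in the deposited tables matched. All 77 were listed in each of the 3 comparisons. The cells were NIH3T3, an established line of mouse fibroblasts, cultured in medium with calf serum. They were nontreated (NT), kept in 250 µM sodium arsenite for 1 h (AS), or left to recover from it without arsenite, over 4 h (RC4) or 8 h (RC8). Total RNA of 1 culture sample per condition was sequenced with QuantSeq FWD, in which oligo(dT) priming gives 1 read close to the 3′ end of each captured transcript. With 1 library per condition no test was possible, and the intervals below cover the counting of reads and not the variation between cultures.

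In splicing, the U1 particle binds the start of an intron, U2AF binds the pyrimidine tract and AG at its end, and the U2 particle with the SF3A and SF3B complexes binds the branch point. The U4/U6.U5 tri-snRNP then joins and the complex is rearranged into its active form. Sm proteins form a ring on most spliceosomal snRNAs, and a ring of Lsm proteins sits on U6. The hnRNPs coat nascent transcripts and are known for their influence on splicing and on the choice of the polyadenylation site (PAS), and several of them, like other splicing factors, have alternative 3′ ends of their own.

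A PAS is given by its share, the percentage of the reads of a gene that MAAPER assigned to it in a library. Of the 77 members, 33, 33 and 34 had a single PAS in the tables of AS, RC4 and RC8, which is 42.9%, 42.9% and 44.2%, compared with 49.4%, 47.0% and 48.7% of all genes. More than 2 PASs were listed for 31.2%, 27.3% and 31.2% of the members and for 19.2%, 21.0% and 20.2% of all genes. PASs of introns took 14.5% of the members' NT reads in the table of AS, compared with 5.93% of the NT reads of all genes, and those of internal exons took 0.975% compared with 1.74%. Most of these intronic reads came from Hnrnpu, Hnrnpa2b1 and Hnrnpa1, for which the label is examined below.

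The sequences that follow are the 30 nt ending at PASs on which the results turn, read from the mm9 genome, 5′ to 3′ on the strand of the gene. Capitals mark AATAAA or ATTAAA, the most common hexamers that the cleavage and polyadenylation machinery recognizes, where one was present. Where a window held a further hexamer, as the 3′-most-exon window of Sf3a3 did, only that nearest the PAS is marked. The pairs of Hnrnpf, Prpf38a and Hnrnpul2 and the 3 PASs of Lsm12 are shown because their shares were among those that changed the most.
Hnrnpf, upstream PAS, coding sequence, chr6:117874899-117874928, + strand: ggtgatgcagggcatgggcgtgtcagctgc
Hnrnpf, downstream PAS, 3′-most exon, chr6:117875617-117875646, + strand: aaAATAAAgactttttcacaatgactggca
Prpf38a, upstream PAS, 3′-most exon, chr4:108237604-108237633, - strand: caacagctttgaagagtgtttttgaccaaa
Prpf38a, downstream PAS, 3′-most exon, chr4:108237478-108237507, - strand: catttgtaATTAAActtgccacagttctca
Hnrnpul2, upstream PAS of the pair, 3′-most exon, chr19:8908490-8908519, + strand: cgggggaggggggttccatttttaaaaatg
Hnrnpul2, downstream PAS of the pair, 3′-most exon, chr19:8908637-8908666, + strand: tcctatctcctgtggctgcactgactggaa
Lsm12, most upstream PAS, 3′-most exon, chr11:102025160-102025189, - strand: attacttgactaacagacttcggcccacca
Lsm12, PAS with the most NT reads, 3′-most exon, chr11:102023869-102023898, - strand: ttcaagccctgccttcaaaatggaaaaaaa
Lsm12, most downstream PAS, 3′-most exon, chr11:102023609-102023638, - strand: tgttataaagagcagctagggtcagagcga

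The next sequences belong to members with a PAS that the tables place upstream of the 3′-most exon, each with the PAS it is compared with.
Hnrnpa1, upstream PAS, listed as intron, chr15:103075364-103075393, + strand: cAATAAAcgatttaattctcttgaatggaa
Hnrnpa1, downstream PAS, listed as intron, chr15:103076824-103076853, + strand: aaaattctgcagaagttgctggccaaaagg
Hnrnpa2b1, PAS with the most reads, listed as intron, chr6:51412802-51412831, - strand: aaattttaagtgcgtgtgtagagttaagaa
Hnrnpa2b1, PAS lost in recovery, listed as intron, chr6:51412924-51412953, - strand: gataatgttaaatttgtaagtttcaggtga
Sf3a3, intron, chr4:124398785-124398814, + strand: aacttgagactgtcaaaaaaaaaaaaaaaa
Sf3a3, 3′-most exon, chr4:124409638-124409667, + strand: ttatattaaaaagatctgtgggaaAATAAA
Hnrnph3, upstream intron, chr10:62485279-62485308, - strand: aaatgggttaaaaaggaaaaaaaaaaaaaa
Hnrnph3, 3′-most exon, chr10:62478176-62478205, - strand: ctttgacttaAATAAAtttttatattcaaa
Snrnp48, intron, chr13:38307470-38307499, + strand: aaaaaaaaaaaaaaaaagagtctcactgtg
Snrnp48, 3′-most exon, chr13:38318820-38318849, + strand: atgaAATAAAtactgatattttaattataa
Snrpb2, intron, chr2:142891056-142891085, + strand: aaggatttccattttatggtaaaccaatgg
Snrpb2, 3′-most exon, chr2:142897447-142897476, + strand: ttaattttgtacAATAAActtttatttgta
Snrpd2, internal exon, chr7:19736701-19736730, + strand: gtcgcaacaacaagaagctgctgggccggg
Snrpd2, 3′-most exon, chr7:19738050-19738079, + strand: gaAATAAAaccctgtgctttttggttttta
Prpf31, intron, chr7:3582863-3582892, + strand: agcatccacatgggtcataactatctgtaa
Prpf31, 3′-most exon, chr7:3592802-3592831, + strand: acaATTAAAtgtgtagtgtcgggctctgaa

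Over the 182 PASs listed for the members, 73 or 40.1% held AATAAA or ATTAAA on the gene's strand in the 30 nt, compared with 47.0% of the 21565 PASs of all genes. In 3′-most or single exons the shares were 45.3% of 150 and 47.9%. In introns they were 16.7% of 24 for the members and 47.2% for all genes, and 4 members' intronic PASs held a hexamer. An A run of at least 10 nt lay in the window of 3 of the 24 intronic PASs, those of Sf3a3, Hnrnph3 and Snrnp48 printed above, in which the runs were 16, 14 and 17 nt long. The share of all intronic PASs with such a run was 14.2%. The part of such runs, which oligo(dT) can prime on, in the reads assigned to these 3 PASs was not tested.

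Levels are given as RPM, the reads of a gene scaled to the sum over all genes, and a change is the log2 ratio to NT minus that of the median gene of the same table. In bulk RNA, fewer cells with a transcript and less of it per cell cannot be told apart. Depth was 22.4 to 23.0 M reads on genes per library, and the reads of a member ranged from 52 to 31641. The median gene itself moved by −0.04, −0.30 and 0.01 on the log2 RPM scale in AS, RC4 and RC8, so that RPM values of RC4 carry a downward shift. All 8 fibroblast markers checked were listed, 0 of 4 epithelial and 0 of 3 endothelial markers were, and of 3 immune markers only Cd14 was. The summed RPM of the 7 listed arsenite-inducible genes was 1753 (NT), 3978 (AS), 16962 (RC4) and 4649 (RC8).

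Most members changed little relative to the median gene. A change of at least 1.5-fold was counted as a call. In AS 1 member was higher, Lsm11, and 3 were lower, Prpf4b, Hnrnpr and Hnrnpll, whereas 2.07% of all genes were higher and 10.2% were lower. In RC4 2 members were higher, Snrnp48 and Hnrnpc, and 9 were lower, where all genes had 15.0% higher and 17.4% lower. The 9 were Prpf40b, Lsm2, Hnrnpf, Hnrnpr, Prpf4b, Lsm7, Snrnp40, Lsm8 and Prpf4. On the RPM scale without centring, these RC4 counts were 1 higher and 21 lower of 77, where 8.04% of all genes were higher and 31.8% lower. In RC8 2 members were higher, Lsm11 and Sf3b4, and 7 were lower, compared with 11.1% and 12.1% of all genes. The 7 were Hnrnpf, Snrpf, Prpf38b, Lsm7, Hnrnpa2b1, Lsm12 and Snrpg. The median change of the members was 0.04, −0.06 and −0.13 in AS, RC4 and RC8, where that of all genes is 0 by construction. The middle 50% of the members lay between −0.14 and 0.11, −0.29 and 0.16, and −0.34 and 0.04, compared with −0.25 to 0.16, −0.41 to 0.37, and −0.31 to 0.31 for all genes. The 3 comparisons share the NT library, so their values are given side by side and are not independent of one another.

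**Figure D1:**
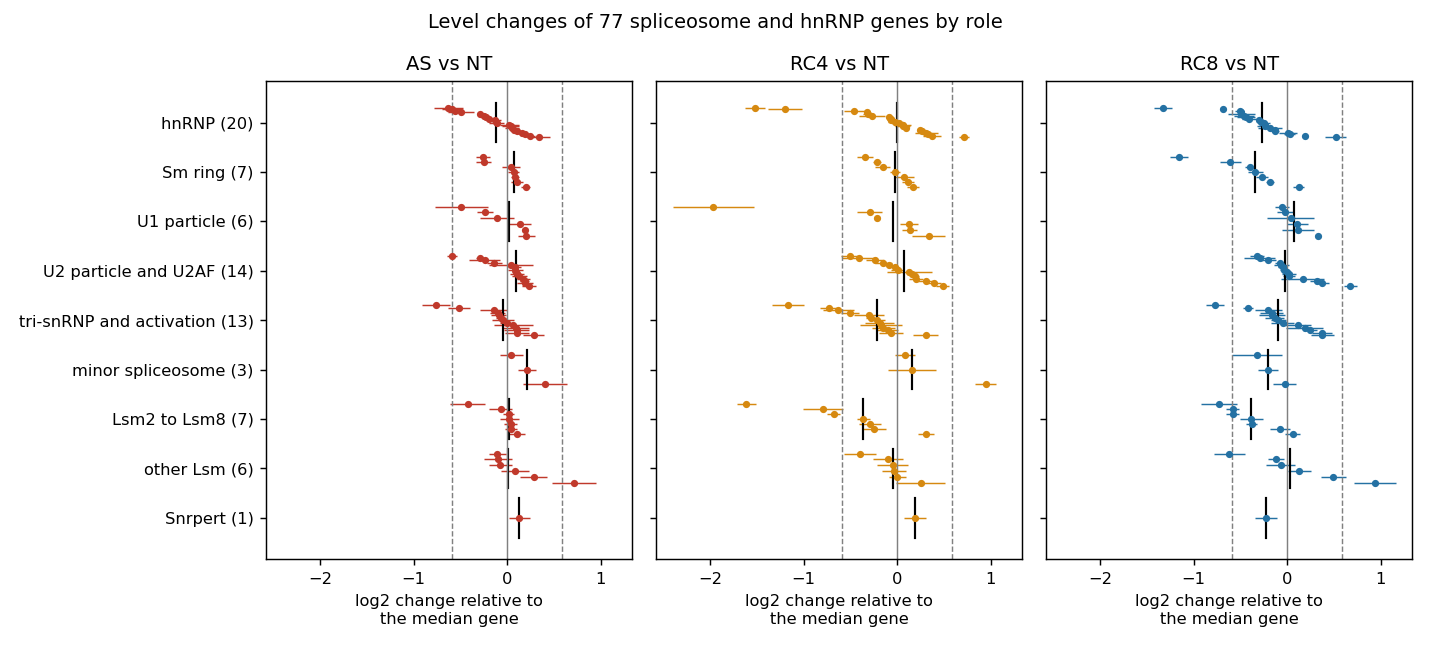
Log2 change of each of the 77 members relative to the median gene, 1 panel for each of AS, RC4 and RC8 set against NT, by role, with the number of members of each role in parentheses. Points are genes, horizontal bars 95% counting intervals, black vertical marks role medians and dashed lines 1.5-fold. Most points lie inside the dashed lines in all 3 panels, the lowest in RC4 being Prpf40b at −1.97 and Lsm2 at −1.61. One of the 2 RC4 count columns of Prpf40b was at 0, and from the first column alone its change was −0.92 ± 0.47.

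The 20 hnRNP genes had a summed level of 8669 RPM (NT), 8112 (AS), 7360 (RC4) and 7295 (RC8). Relative to the median gene their medians were −0.12 (AS), 0.00 (RC4) and −0.27 (RC8), and 16 of 20 lay below 0 in RC8. Hnrnpk, which binds C-rich RNA and had the most NT reads of the hnRNPs, measured 1348 (NT), 1409.9 (AS), 1377 (RC4) and 1233 RPM (RC8). Its changes were 0.11 ± 0.02, 0.33 ± 0.02 and −0.13 ± 0.02, where ± is the 95% counting interval here and below.

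Hnrnpf, a binder of G runs in introns and exons, had the largest decrease of the 20 in both recoveries. It measured 130.3 (NT), 85.8 (AS), 36.9 (RC4) and 52.0 RPM (RC8), so NT was the highest library and RC4 the lowest. The changes of −0.56 ± 0.08, −1.52 ± 0.11 and −1.33 ± 0.10 correspond to a level relative to the median gene that was 1.48-fold lower than NT in AS, 2.87-fold lower in RC4 and 2.51-fold lower in RC8. Its paralog Hnrnph2 measured 49.2 (NT), 60.6 (AS), 49.6 (RC4) and 70.6 RPM (RC8), with changes of 0.34 ± 0.11, 0.31 ± 0.12 and 0.52 ± 0.11, all above 0 and within 1.5-fold.

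Hnrnpr, an RNA-binding protein related to Syncrip, measured 40.2 (NT), 25.3 (AS), 14.2 (RC4) and 28.7 RPM (RC8). Its changes were −0.63 ± 0.15, −1.20 ± 0.18 and −0.49 ± 0.14, past 1.5-fold in AS and in RC4. Hnrnpll, a regulator of CD45 splicing in lymphocytes, was low only in the AS library of the 4, at 75.9 (NT), 49.2 (AS), 79.7 (RC4) and 76.9 RPM (RC8). The AS change was −0.59 ± 0.11, just past 1.5-fold, and those of RC4 and RC8 were 0.37 ± 0.10 and 0.01 ± 0.10. Hnrnpc, which binds U tracts and is named for the C proteins of the hnRNP core particle, was highest in RC4. It measured 225 (NT), 259 (AS), 299 (RC4) and 229 RPM (RC8), and its RC4 change of 0.72 ± 0.05 was 1.64-fold above the median gene's. In AS and RC8 Hnrnpc stood at 0.25 ± 0.05 and 0.03 ± 0.06.

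Hnrnpa2b1, one of the core A/B proteins, measured 1142 (NT), 906 (AS), 742 (RC4) and 712 RPM (RC8). The 4 libraries fell in the order NT, AS, RC4, RC8, and the RC8 change was −0.69 ± 0.03. Hnrnpa1 and Hnrnpa3, its close relatives, stayed within 1.5-fold, with changes of −0.13 ± 0.06, 0.02 ± 0.06 and −0.25 ± 0.06 for Hnrnpa1 and 0.05 ± 0.08, −0.02 ± 0.08 and −0.24 ± 0.08 for Hnrnpa3. Hnrnpa1 has many processed copies in the genome, and since reads that map to several places were kept by the aligner its counts are uncertain to that extent.

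Among the 7 genes of the Sm ring, none was called in AS or RC4 and 2 were called lower in RC8, where 6 of 7 were below 0. Of all genes, 2.07%, 15.0% and 11.1% were called higher in AS, RC4 and RC8, and 10.2%, 17.4% and 12.1% lower. Snrpd1, the member with the most NT reads, measured 453 (NT), 467 (AS), 317 (RC4) and 400.5 RPM (RC8), and its changes were 0.09 ± 0.04, −0.21 ± 0.04 and −0.18 ± 0.04. Snrpf, a subunit of the same ring, measured 124 (NT), 102 (AS), 79.8 (RC4) and 55.9 RPM (RC8). NT was its highest library and RC8 its lowest, with a change of −1.16 ± 0.10 in RC8, which is 2.23-fold lower, after −0.25 ± 0.08 in AS and −0.34 ± 0.09 in RC4. The other call in RC8 was Snrpg, also a ring subunit, at 73.6 (NT), 73.7 (AS), 63.0 (RC4) and 48.5 RPM (RC8) and −0.61 ± 0.11 in RC8. Snrpe stands beside Snrpert, a retrogene of it whose single PAS is also listed in an intron of Rnf24, and reads of these near-identical copies may have been split between them. Snrpert was within 1.5-fold of NT in every condition.

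Of the 6 genes of the U1 particle, Snrnp70, the U1-70K protein that contacts the U1 snRNA, had the most reads. It measured 921 (NT), 1019.5 (AS), 646 (RC4) and 1159 RPM (RC8), with changes of 0.19 ± 0.03, −0.21 ± 0.03 and 0.33 ± 0.03. Prpf40b, a U1-associated factor, had the fewest reads of any member in any library, 52 in RC4, and a change of −1.97 ± 0.43 there. One of the 2 deposited count columns was at 0 for that library and the other at 52, while its NT columns held 119 and 128. In 129 genes of that table a column was likewise at 0, and from the first column alone the RC4 change of Prpf40b was −0.92 ± 0.47. In RC8 it was 0.04 ± 0.25. The remaining 4 U1 genes were within 1.5-fold in every comparison.

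The U2 particle, SF3A, SF3B and U2AF gave 1 call over 14 genes and 3 comparisons. Of all genes, 2.07%, 15.0% and 11.1% were called higher in AS, RC4 and RC8, and 10.2%, 17.4% and 12.1% lower. The summed level of the 14 was 2465 RPM (NT), 2344 (AS), 2092 (RC4) and 2531 (RC8). Sf3b2, an SF3B subunit and the member with the most NT reads here, measured 467 (NT), 370.2 (AS), 358 (RC4) and 458 RPM (RC8). Its changes of −0.29 ± 0.04, −0.09 ± 0.04 and −0.03 ± 0.04 were small. Sf3b1, the large SF3B subunit that clamps the branch point, was low only in AS, at 320.2 (NT), 208 (AS), 296 (RC4) and 311 RPM (RC8). The AS change was −0.58 ± 0.05, just inside 1.5-fold, and RC4 and RC8 stood at 0.19 ± 0.05 and −0.05 ± 0.05. Sf3b4, another SF3B subunit, measured 130.2 (NT), 149 (AS), 148 (RC4) and 209 RPM (RC8), with RC8 the highest. Its changes were 0.23 ± 0.07, 0.49 ± 0.07 and 0.68 ± 0.07, so that each was above 0 and the one of RC8 was called. Sf3b6, also of SF3B, measured 109.6 (NT), 117 (AS), 117 (RC4) and 143 RPM (RC8), with changes of 0.13 ± 0.08, 0.39 ± 0.08 and 0.37 ± 0.08. One PAS of Sf3b4 and one of Sf3b3 were also listed under a small RNA gene at the same place.

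Of the 13 genes of the tri-snRNP and of activation, 12 were below 0 in RC4, with a median of −0.22, and the summed level was 1005 RPM (NT), 929 (AS), 655 (RC4) and 921 (RC8). Prpf19, the ubiquitin ligase of the complex that activates the spliceosome, measured 276 (NT), 256 (AS), 185 (RC4) and 207 RPM (RC8), with changes of −0.06 ± 0.05, −0.27 ± 0.06 and −0.42 ± 0.05. Prpf4b, a kinase that phosphorylates tri-snRNP proteins, measured 46.0 (NT), 26.4 (AS), 16.6 (RC4) and 44.6 RPM (RC8). AS and RC4 were its low libraries and RC8 was back near NT, with changes of −0.76 ± 0.15, −1.17 ± 0.17 and −0.05 ± 0.12. Prpf38b measured 104 (NT), 94.6 (AS), 60.0 (RC4) and 61.3 RPM (RC8) and had its largest change in RC8, −0.77 ± 0.10. The other calls were in RC4, where Prpf4, a U4/U6 protein, stood at −0.63 ± 0.17 and Snrnp40, a WD-repeat protein of U5, at −0.73 ± 0.09. In RPM, Prpf4 measured 37.4 (NT), 38.9 (AS), 19.6 (RC4) and 49.5 RPM (RC8), and Snrnp40 123 (NT), 119 (AS), 59.9 (RC4) and 116 RPM (RC8), RC4 being the lowest library for both. A relative of Prpf38b, Prpf38a, a component of the complex formed when the tri-snRNP joins, measured 56.6 (NT), 66.9 (AS), 41.5 (RC4) and 73.4 RPM (RC8), with changes of 0.28 ± 0.11, −0.15 ± 0.12 and 0.37 ± 0.10.

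The 3 genes here encode proteins of the U11/U12 particle, which recognizes the rare minor introns. Their changes were above 0 in AS and RC4 and below 0 in RC8, several with counting intervals that include 0. Their medians were 0.21, 0.16 and −0.20. Snrnp48 measured 47.1 (NT), 47.3 (AS), 73.7 (RC4) and 46.4 RPM (RC8), so only RC4 stood apart, with a change of 0.95 ± 0.11 or 1.93-fold. In AS and RC8 the changes of Snrnp48 were 0.05 ± 0.12 and −0.03 ± 0.12. Snrnp25 had the most NT reads of the 3, at 67.0 (NT), 75.4 (AS), 57.8 (RC4) and 58.4 RPM (RC8), with changes of 0.21 ± 0.10, 0.09 ± 0.11 and −0.20 ± 0.11. Snrnp35 measured 11.2 (NT), 14.4 (AS), 10.1 (RC4) and 8.91 RPM (RC8), and its changes were 0.41 ± 0.24, 0.16 ± 0.26 and −0.32 ± 0.27.

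The U6 ring, Lsm2 to Lsm8, was the role with the lowest median in both recoveries, −0.36 in RC4 and −0.38 in RC8, with 6 of 7 genes below 0 each time. In AS its median was 0.03. Its summed level was 791 RPM (NT), 780.1 (AS), 449 (RC4) and 609 (RC8). Lsm8, the subunit found in the U6 ring and not in the cytoplasmic decay ring, measured 212 (NT), 209 (AS), 108 (RC4) and 164 RPM (RC8), with changes of 0.02 ± 0.06, −0.68 ± 0.07 and −0.38 ± 0.06. Lsm2 measured 167 (NT), 167 (AS), 44.4 (RC4) and 112 RPM (RC8). It did not differ from NT in AS beyond counting error and was 3.06-fold lower in RC4, with changes of 0.04 ± 0.07, −1.61 ± 0.10 and −0.58 ± 0.07. Lsm7 measured 24.1 (NT), 17.6 (AS), 11.3 (RC4) and 14.6 RPM (RC8), with changes of −0.42 ± 0.19, −0.79 ± 0.21 and −0.73 ± 0.20. Lsm4 was the exception in both recoveries, at 0.31 ± 0.08 in RC4 and 0.06 ± 0.08 in RC8, where the interval included 0.

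Among the 6 other Lsm genes, Lsm11 and Lsm10 replace Sm proteins in the U7 particle, which processes the 3′ ends of histone mRNAs. Lsm11 measured 10.7 (NT), 17.0 (AS), 10.3 (RC4) and 20.5 RPM (RC8), highest in RC8 and nearly equal in NT and RC4. Its changes were 0.71 ± 0.23, 0.25 ± 0.26 and 0.94 ± 0.22, on 236 to 472 reads per library. Lsm10 measured 31.4 (NT), 37.1 (AS), 19.3 (RC4) and 44.4 RPM (RC8), with changes of 0.29 ± 0.14, −0.40 ± 0.17 and 0.49 ± 0.14. The changes of both U7 genes were thus above 0 in AS and RC8. In RC4 that of Lsm10 was below 0, and the interval of Lsm11 included 0. Lsm14a, a protein of P bodies and the member of this group with the most NT reads, measured 93.0 (NT), 84.0 (AS), 75.7 (RC4) and 85.8 RPM (RC8) and stayed within 1.5-fold. Lsm12, called lower in RC8, measured 31.8 (NT), 28.9 (AS), 24.2 (RC4) and 20.8 RPM (RC8), with a change of −0.62 ± 0.17 in RC8.

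**Figure D2:**
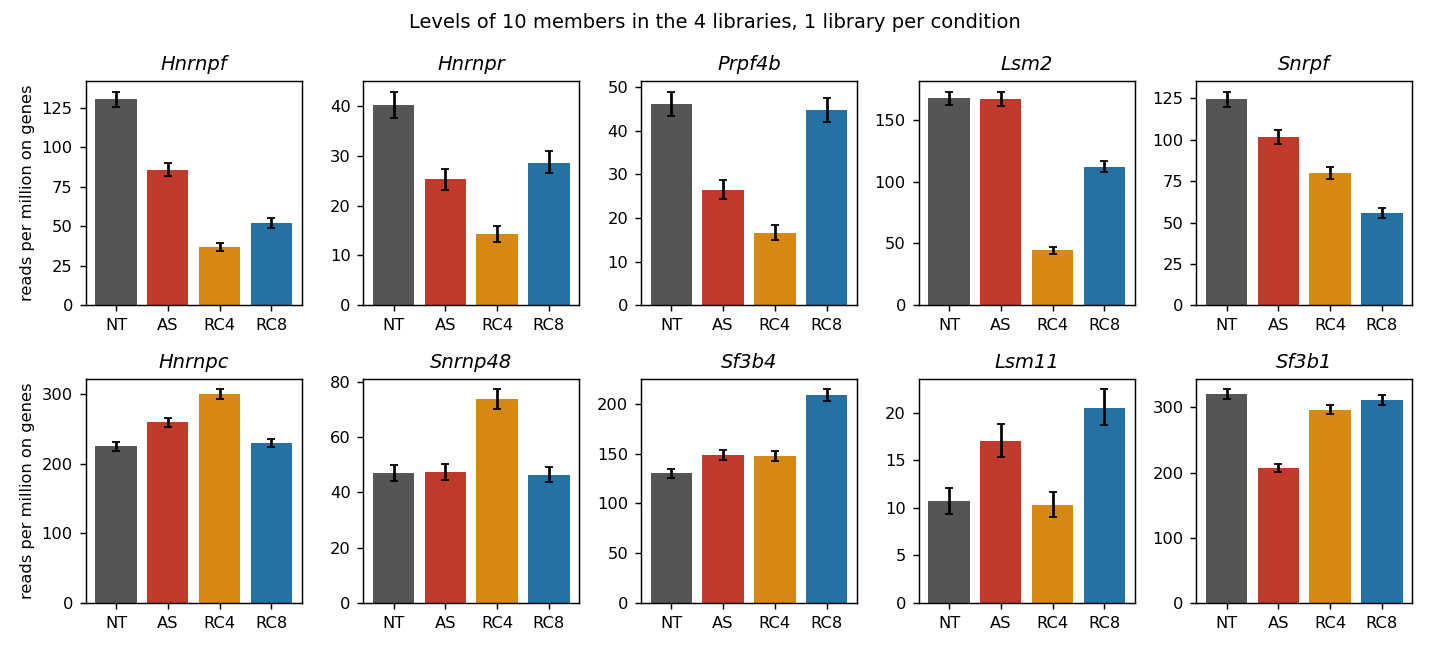
Levels in RPM of 10 members in the 4 libraries, each panel with its own axis starting at 0. Bars are single libraries and error bars are exact 95% Poisson intervals, which cover counting only. Hnrnpf, Hnrnpr, Lsm2 and Snrpf are lower in RC4 and RC8 than in NT, Hnrnpc and Snrnp48 are highest in RC4, and Lsm11 and Sf3b4 in RC8.

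The list of 75 other splicing genes, none of which matches the symbols above, was used for comparison, and 70 or 71 of them were listed in each table. In AS 0 of 71 were called higher and 0 lower, compared with 2.07% and 10.2% of all genes, and the median was 0.05. The furthest were Gemin8 at 0.51 ± 0.40 and Tra2b at 0.49 ± 0.06, and Luc7l2 at −0.50 and Syncrip at −0.46. Gemin8 had only 86 reads in NT and 118 in AS. In RC4 6 of 70 were higher and 9 lower, or 8.57% and 12.9%, below the 15.0% and 17.4% of all genes, with a median of −0.01. The RC4 extremes were Bud31 at 1.13 and Slu7 at 1.07, and Srrm1 at −1.18 and Rbm10 at −1.15. In RC8 4 of 71 were higher and 3 lower, compared with 11.1% and 12.1% of all genes, the median was −0.00, and the extremes were Coil at 0.80 and Cwc27 at 0.74, and Tra2a at −0.94 and Luc7l3 at −0.71. All of these values are log2 changes relative to the median gene. A PAS share change of at least 10 points, the limit used below, was seen in 3 of 45, 5 of 43 and 15 of 47 of the listed genes with more than 1 PAS, in AS, RC4 and RC8, compared with 15.2%, 29.1% and 26.9% over all genes.

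The PAS shares were compared within each table. A change of at least 10 percentage points in any PAS was counted as a call. In AS 5 of the 44 members with more than 1 PAS were called, compared with 15.2% of all such genes. In RC4 13 of 44 were called, compared with 29.1%, and in RC8 14 of 43, compared with 26.9%. The median of the largest change per member was 3.42, 5 and 6.30 points, and that over all genes was 4.20, 6.20 and 6 points. The 5 members of AS were Prpf38a, Hnrnpf, Snrnp48, Hnrnpll and Hnrnpa1. From the largest change down, the 13 of RC4 were Lsm12, Prpf38a, Hnrnpf, Sf3a3, Prpf18, Hnrnpa1, Prpf38b, Hnrnpm, Hnrnph3, Hnrnpa2b1, Hnrnpul2, Lsm11 and Snrnp27. In the same order, the 14 of RC8 were Lsm12, Prpf38a, Hnrnpf, Hnrnpul2, Hnrnpa2b1, Prpf31, Hnrnpm, Prpf18, Prpf4b, Prpf4, Hnrnpdl, Snrpd2, Prpf38b and Hnrnpd. Only Prpf38a, Hnrnpf and Lsm12 exceeded 20 points in RC4 and in RC8.

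**Figure D3:**
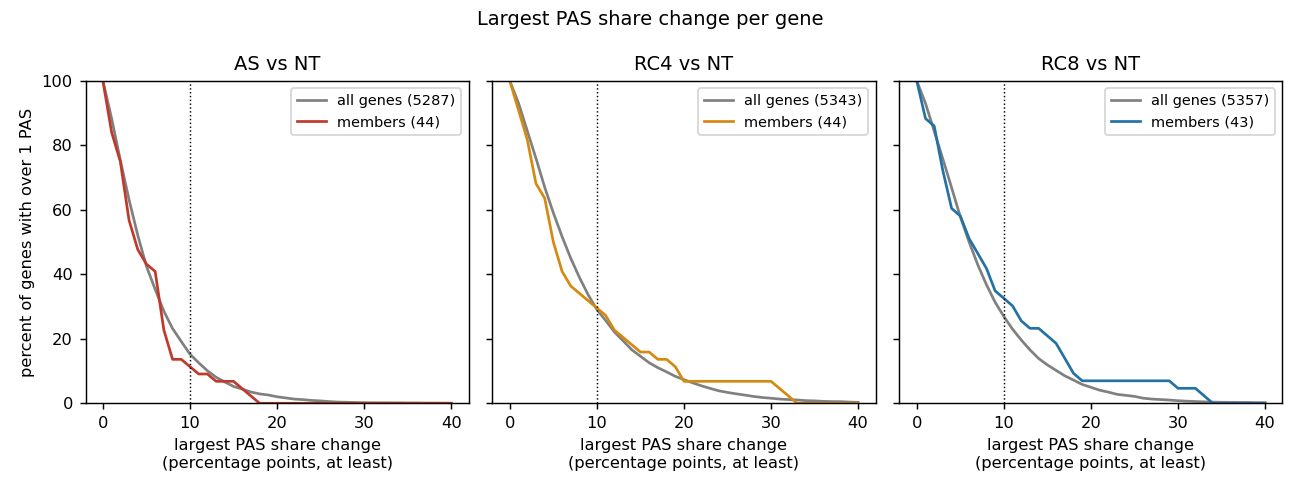
Percentage of genes with more than 1 PAS whose largest PAS share change was at least the value on the horizontal axis, for the members (coloured) and for all genes (grey), 1 panel per condition set against NT. The dotted line marks 10 points, where the members stand at 11.4%, 29.5% and 32.6%. The step that the members' curves keep past 20 points in RC4 and RC8 comes from 3 genes.

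In Hnrnpf both PASs are listed for the 3′-most exon, 718 nt apart, and the upstream one lies in the coding sequence of all 5 GENCODE vM1 transcripts, while the downstream one lies 624 nt after the stop codon. Neither hexamer precedes the upstream PAS, and AATAAA precedes the downstream one. The share of the upstream PAS in NT was 21.3%, with a 95% Wilson interval of 19.8 to 22.8%. It reached 38.1% after arsenite (35.9 to 40.3), 51.9% at RC4 (48.6 to 55.3) and 51.1% at RC8 (48.3 to 53.9). In reads, the upstream PAS measured 27.7 RPM (NT), 32.7 (AS), 19.2 (RC4) and 26.6 (RC8). The downstream PAS had 102 RPM (NT), 53.1 (AS), 17.8 (RC4) and 25.4 (RC8). Relative to the median gene the reads at the downstream PAS changed by −0.91, −2.23 and −2.02 on the log2 scale and those at the upstream PAS by 0.28, −0.23 and −0.07. The difference of Hnrnpf from NT thus lay mostly at its downstream PAS, the one past the stop codon.

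Prpf38a showed the opposite shift, between 2 PASs 126 nt apart in its 3′-most exon, at 226 and 352 nt after the stop codon. Its upstream PAS, without either hexamer, held 35.2% (NT), 17.8% (AS), 3.37% (RC4) and 2.88% (RC8). The Wilson intervals were 32.6 to 37.9% in NT and 2.39 to 4.71% in RC4. Reads at this PAS went from 19.9 RPM in NT to 11.9, 1.40 and 2.11 RPM, and those at the downstream PAS with ATTAAA from 36.7 to 55.0, 40.1 and 71.3 RPM. The upstream PAS was thus assigned few reads in both recoveries, while the level of the gene stayed within 1.5-fold. The shares rest on MAAPER's assignment of reads between PASs that lie close together, and the intervals leave out its uncertainty. The same limit holds for the close pairs of Hnrnpm and Hnrnpul2 below.

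Hnrnpm had a similar pair 107 nt apart and was picked for description after its values were seen. Its upstream PAS held 23.2% (NT), 15.5% (AS), 8.59% (RC4) and 6.50% (RC8), with neither hexamer in its window. The downstream PAS, with AATAAA, gained what it lost.

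Hnrnpul2 has 4 PASs in its 3′-most exon, and the 2 most downstream, 147 nt apart, moved in opposite directions in recovery. The former of the pair held 9.51% in NT, 2.47% in RC4 and 1.54% in RC8, and the latter held 52.7%, 64.2% and 70.7%. In AS, whose table gives NT shares of 9.78% and 51.9%, they held 7.55% and 50.8%. Neither PAS had a hexamer in its window.

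Lsm12 showed the largest share changes of all members in RC4 and RC8. The PAS with the most NT reads, 1520 nt after the stop codon, had 50.5% of the NT reads (46.8 to 54.1). Its share was 18.3% at RC4 (15.3 to 21.7) and 16.6% at RC8 (13.6 to 20.3). All of the other 3 PASs gained share in both recoveries. The most upstream went from 25.4% to 40.6% and 32.6%, and the most downstream from 13.4% to 24.3% and 31.9%. In the AS table, which lists 3 PASs of Lsm12, the main PAS held 61.2% in NT and 51.5% in AS. None of the printed windows of Lsm12 held a hexamer.

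Hnrnpll, called for its level in AS, has 4 PASs in its 3′-most exon and 1 in an intron. Its most upstream 3′-most-exon PAS held 39.4% in NT and 50.9% in AS, and the most downstream, 859 nt further on, held 38.4% and 25.8%. In reads the former measured 29.9 and 25.0 RPM and the latter 29.1 and 12.7 RPM. In RC4 the shares of the pair were 38.2% and 41.9%, and in RC8 they were 48.2% and 34.9%.

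To describe the PASs of the 3′-most exon as a whole, a REDu score was computed from the shares, the log2 ratio of the distal to the proximal PAS in the treated library minus that in NT, for the 2 PASs whose shares changed the most. A negative score means that the proximal PAS gained. The median over the 34 members with a score was −0.40 in AS, with 27 or 79.4% below 0, and −0.22 over 4427 genes, with 67.3% below 0. In RC4 it was −0.21 over 34 members, with 19 or 55.9% below 0, and −0.36 over 4461 genes, with 68.3% below 0. In RC8 it was −0.15 over 33 members, with 17 or 51.5% below 0, and −0.14 over 4504 genes, with 55.5% below 0. For pairs at least 300 nt apart the members' medians were −0.51, −0.44 and −0.40, and those of all genes −0.34, −0.58 and −0.31. For closer pairs they were −0.02, 0.02 and 0.16, and −0.04, 0.02 and 0.17 over all genes. Hnrnpf had scores of −1.19 ± 0.18, −2.00 ± 0.23 and −1.95 ± 0.21, and Prpf38a had 1.33 ± 0.25, 3.95 ± 0.53 and 4.19 ± 0.44.

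Upstream PASs, those listed for introns or internal exons, reached 10% of the reads in at least 1 library in 14 members. The list label was set against GENCODE vM1. Of the members' 24 intronic PASs, 16 lay in the last exon of at least 1 annotated transcript, 13 of them in that of a coding transcript, and 7 lay in no annotated exon. The 3 PASs of Hnrnpu that were listed as intronic in every table lie 290, 786 and 1018 nt after a stop codon in the last exon of 1 of its 6 transcripts. The 3 intronic PASs of Hnrnpa3 lie 1135, 1707 and 2060 nt after a stop codon in the same way, and the 4 of Hnrnpa2b1 are in the last exon of a coding transcript. Both PASs of Hnrnpa1 lie past the end of its 3 annotated transcripts, 948 and 2408 nt after the stop codon. For Hnrnpu, Hnrnpa3 and Hnrnpa2b1 the label does not separate 3′ untranslated regions of some transcripts from introns of others.

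The upstream PAS of Hnrnpa1, preceded by AATAAA, held 70.0% (NT), 80.7% (AS), 88.9% (RC4) and 76.3% (RC8). In reads it stayed nearly level, at 131, 135, 138 and 121 RPM. The downstream PAS measured 56.3 RPM (NT), 32.2 (AS), 17.2 (RC4) and 37.5 (RC8). As in Hnrnpf, reads at the downstream PAS were fewest in RC4.

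In Hnrnpa2b1 the PAS with the most reads held 48.9% in NT, 61.4% in RC4 and 66.6% in RC8. The PAS 122 nt upstream of it held 6.19%, 0.109% and 0.0775% and was not listed in the table of AS. The most upstream PAS held 12.2%, 5.10% and 4.41%. The Wilson intervals of NT and of each recovery did not overlap at any PAS of Hnrnpa2b1. They are narrow because the gene had 25779 reads in NT, 16984 in RC4 and 16382 in RC8. These intervals leave out the uncertainty of assigning reads to nearby PASs. In the table of AS, the same NT library had 54.3% at the PAS with the most reads and 13.2% at the most upstream one. Hnrnpu and Hnrnpa3 changed less, by at most 2.90 and 6.90 points.

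Hnrnpdl, which is known to regulate its own mRNA through its 3′ end, spread its reads over 6 or 7 PASs. Its internal exon PAS held 5.84% (NT), 7.31% (AS), 6.62% (RC4) and 2.67% (RC8), so it was below NT in RC8 alone. The first PAS of its 3′-most exon went from 27.9% to 30.6% in AS, from 21.6% to 21.4% in RC4 and from 27.9% to 40.0% in RC8. An intronic PAS listed in RC4 alone held 3.82% in NT and 9.57% in RC4, and the other intronic PAS was at 9.71% to 12.7% in every library.

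Sf3a3, a subunit of SF3A, had an intronic PAS that lies in no exon of its 3 annotated transcripts. Its PAS in the 3′-most exon is also listed under Mir697, so the reads there are uncertain. The intronic PAS held 40.0% of the NT and 40.0% of the AS reads, 59.4% at RC4 (57.6 to 61.2) and 37.4% at RC8. The intronic PAS measured 61.7, 63.5, 74.8 and 58.7 RPM in that order and the last-exon PAS 92.6, 95.2, 51.1 and 98.3 RPM. Only in RC4 did the intronic PAS have more reads than the last exon.

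Snrpb2, the U2B″ protein, had an intronic PAS in the last exon of a noncoding transcript with 31.0% (NT), 35.7% (AS), 36.7% (RC4) and 24.0% (RC8). Snrpd2, an Sm protein, had a PAS in its coding sequence, in an internal exon, with 24.7%, 21.4%, 20.7% and 13.4%. For both genes RC8 had the lowest upstream share of the 4 libraries. In reads, the upstream PAS of Snrpb2 measured 82.2 RPM in NT and 60.4 in RC8, and that of Snrpd2 67.1 and 27.7, while their last-exon PASs changed by 0.06 and −0.20 (log2, relative to the median gene).

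Prpf31, a U4/U6 protein, also had its lowest intronic share in RC8, where it was 19.0% compared with 36.0% in NT and 39.6% in RC4. In the AS table, which lists a further intronic PAS, the same PAS held 34.0% in NT and 32.6% in AS. This PAS lies in the last exon of a noncoding transcript of Prpf31.

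Hnrnph3 and Snrnp48 had intronic PASs whose windows hold long A runs. The upstream intronic PAS of Hnrnph3 held 19.8% (NT), 13.9% (AS), 7.56% (RC4) and 10.3% (RC8). That of Snrnp48 held 19.8% (NT), 7.92% (AS), 14.0% (RC4) and 19.5% (RC8). NT was the highest library for both. In Snrnp48 the higher level of RC4 was seen at all 3 PASs, with log2 changes relative to the median gene of 0.45 at the intronic PAS and 1.15 and 0.73 at those of the 3′-most exon.

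The internal exon PASs of Prpf4b and Sf3b2 lie in coding sequence. In Prpf4b the tables list 2 positions 63 nt apart for it, one in AS and the other in RC4 and RC8. The NT share was 20.3%, and later shares were 26.5% (AS), 25.5% (RC4) and 17.3% (RC8). In Sf3b2 the internal exon PAS had 9.15% (NT), 9.88% (AS), 10.2% (RC4) and 9.22% (RC8). Sf3b2 was the most constant of the 14 genes, no PAS of it moving by over 1.05 points.

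Summed over all members, intronic PASs took 14.5% of reads in NT and 12.9% in AS, 14.4% in NT and 14.0% in RC4, and 14.5% in NT and 11.5% in RC8. Over all genes they took 5.93% and 5.91%, 5.99% and 6.30%, and 5.92% and 5.93%. These sums weight each gene by its reads, so they also move with the levels of the genes that hold most intronic reads. Hnrnpu measured 947 RPM in NT and 675 in RC8, and Hnrnpa2b1 1142 and 712. How much of the RC8 difference came from gene levels and how much from PAS shares was not tested.

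**Figure D4:**
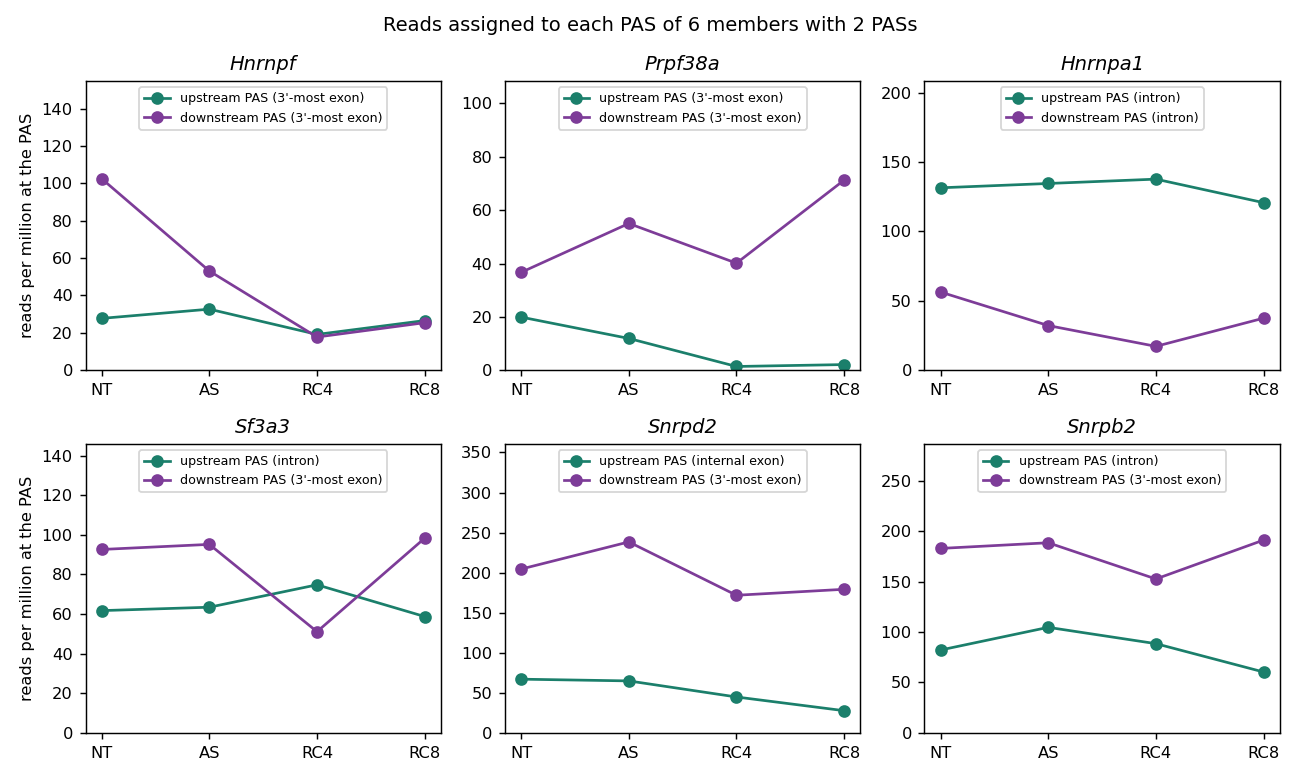
RPM assigned to each PAS of 6 members with 2 PASs in the 4 libraries, 1 library per condition, with the type of each PAS as the tables list it. The downstream PASs of Hnrnpf and Hnrnpa1 and the upstream PAS of Prpf38a have fewer reads in AS, RC4 and RC8 than in NT, and in Sf3a3 the PASs change places in RC4. The upstream PASs of Snrpd2 and Snrpb2 are lowest in RC8.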

How the data were processed

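The authors trimmed the QuantSeq FWD reads with bbmap, mapped them to mm9 with STAR 2.5.2a, keeping reads with several hits, and ran MAAPER, which models the distance from reads to the annotated PASs of PolyA_DB to assign them. Genes had at least 50 reads and PASs a proportion of 5%. The deposited counts are reads per gene, in 2 columns per library that were added here, and were not normalized. The deposited fractions are MAAPER's estimates of the share of each PAS. The authors' tables also hold p-values and RLD and RED scores of their own comparisons, which were not used. The first condition of each table was taken as NT, since its counts are nearly the same in all 3 tables. The REV libraries were not analysed here.

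Counts were scaled to the summed reads of each library (RPM), and changes were centred on the median gene. The NT level is the median over the 3 tables. The interval of a change is 1.96 standard errors of a log ratio of counts, levels have exact Poisson intervals and shares Wilson intervals from share times reads. All are at the 95% level and cover the counting of reads only. PCR copies could not be told from separate molecules, so the intervals may be too narrow even for that. The Wilson intervals also leave out the uncertainty of MAAPER's assignment of reads to PASs. PASs were compared with GENCODE vM1, in which all 77 members were found, 5 under an older symbol, and windows of 30 nt were read from mm9. No listed position is followed by an A. The scripts were tested on simulated data and run with Python 3.11.15, numpy 2.4.6, pandas 2.3.3, scipy 1.17.1 and matplotlib 3.10.9.

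The members and gene lists were chosen with earlier results of these data known. Genes named with values were, in each role, the member with the most NT reads, in each comparison the 4 largest changes each way and the 4 largest share changes among members with a mean of at least 200 reads, and members with an upstream PAS at 10% or more. Members named for calls were added. The values of 1 gene that the rule takes are not reported here. Of the PASs of the last 2 kinds, those on which results turn are printed. Alternatives were no centring, a filter at 200 reads, the first count column, stricter limits, PASs of the 3′-most exon only, pairs at least 300 nt apart and a share minimum of 5%.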

Additional observations from a re-analysis of the deposited data

Results flagged for a closer look

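Lsm12 had REDu scores of opposite sign in the recoveries, −2.14 in RC4 and 2.86 in RC8, each from 1 library compared with the same NT library, and the difference was not tested. The PAS that lost share was the same one in both recoveries, and the score pairs it with the most upstream PAS in RC4 and with the most downstream PAS in RC8.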

How the results depend on the processing

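Without centring on the median gene, 5 members were lower in AS (11.4% of all genes), and in RC4 1 was higher and 21 were lower (8.04% and 31.8% of all genes) with a median change of −0.37. At 2-fold in place of 1.5-fold, AS had 0 members higher and 0 lower (0.718% and 2.93% of all genes), RC4 had 0 and 5 (6.38% and 6.38%), and RC8 had 0 and 2 (2.95% and 3.59%). The 5 of RC4 include Prpf40b, whose change from the first count column alone, −0.92, was within 2-fold. At 20 points in place of 10, the share calls numbered 0 for AS and 3 for each recovery (2.02%, 7.34% and 4.97% of all genes). With PASs of the 3′-most exon only they were 3 in AS, and no share of all genes under that setting is at hand to set beside this count. The other 37 values, among them all medians of REDu and all values with the filter at 200 reads or with the first count column, stayed within 1.5 times the reported count or within the spread used for medians, and none changed its direction. No paired analysis was possible because each condition has 1 library, and for the same reason no replicate could be left out. Depth limits the low genes most: the counting interval of Prpf40b in RC4 is ± 0.43 on the log2 scale, whereas the median over the members is ± 0.09 there.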
